A study of Arabidopsis thaliana with 6 samples.

Results

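The genes described here are 7 R2R3-MYB transcription factors that control suberin in Arabidopsis, MYB9, MYB39, MYB41, MYB53, MYB92, MYB93 and MYB107. They were chosen by gene identifier, not by their values, and all 7 were found among the 32833 genes of the deposited table. Roots of the wild-type accession Col-0 (WT) were compared with those of xal1-2, which has lost the function of the MADS-box transcription factor gene XAANTAL1 (XAL1) and is in the Col-0 background. Both groups had 3 biological replicates, each a pool of roots from about 60 seedlings at 8 days after sowing, cut free of hypocotyl and cotyledons, and both grew on 0.2X MS medium with 1% sucrose at 22 °C under 16 h of light and 8 h of dark. The mutant is represented by a single allele, and whole roots were sequenced, so the values average over all root cell types.

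Suberin is a polyester of long-chain fatty acids, fatty alcohols and ferulate that is laid down around endodermal cells some distance behind the root tip, after the Casparian strip has formed. It limits the backflow of water and ions and the uptake of solutes through the endodermis. R2R3-MYB factors switch on the enzymes that make its monomers and the transporters that export them, and several act in parallel, so that losing a single factor often leaves much of the suberin in place. MYB39 (also called SUBERMAN), MYB53, MYB92 and MYB93 belong to MYB subgroup 24, MYB9 and MYB107 to subgroup 10, and MYB41 to subgroup 11.

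XAL1 was checked first. Its scaled counts (reads divided by a size factor for the library) were 263.8, 250.1 and 268.7 in WT and 76.5, 102.0 and 103.2 in xal1-2, and the groups did not overlap. The mutant mean was 0.36 of the WT mean, with a change of -1.48 on the log2 scale (SE 0.14; limma adjusted p = 0.00034). Libraries held 6978879 to 9247089 reads in genes. Endodermal cells were represented in every library: all 7 endodermis markers, among them CASP1, MYB36 and ESB1, had reads, and their summed scaled counts ran from 5831 to 7682 in WT and from 4500 to 4871 in xal1-2. Of 5 seed storage and oil body markers, 4 had 0 reads in every library. The other, CRU3, had a scaled count of 0.914 in 1 WT library and 0 elsewhere. These seed markers thus gave next to no reads. The seed coat, where MYB9 and MYB107 also act, was given no markers of its own. The 5 green tissue markers all had reads, and their scaled counts summed to 1012 to 1533 in WT and 763 to 1540 in xal1-2. Those of the 4 root hair markers summed to 1128 to 1783 in WT and 1063 to 1678 in xal1-2.

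None of the 7 MYB genes passed the test between xal1-2 and WT (limma-trend on log2(scaled count + 1), adjusted p under 0.05), against 3.93% of the 24441 genes tested. Of the 7 log2 fold changes, which are xal1-2 over WT here and below, 6 were below 0 and 1 above. Their median was -0.24, beside -0.004 for all genes tested, of which 50.5% were below 0. Of the 87 other numbered MYB genes with reads, described below, 64.4% were below 0, with a median of -0.18. The tilt below 0 was thus not particular to the members. Among the 7, MYB53 had the lowest value at -1.10 and MYB107 the highest at 0.53. At an unadjusted p under 0.05 the test took 1 of the 7, MYB53, and 19.6% of all genes tested. The count tests edgeR, DESeq2 and limma-voom, which took 5.56%, 5.6% and 4.94% of the genes to which they gave an adjusted p, called none of the members either. At an unadjusted p under 0.05 DESeq2 took MYB53 and 13.6% of the 24440 genes to which it gave a p-value. At the same level edgeR and limma-voom took MYB53 and MYB107, and 22.8% each of the 18918 genes that they tested. These last tests left out genes of low count, MYB41 among them. The groups did not overlap for 3 of the 7, MYB53 and MYB9 lower and MYB107 higher in xal1-2, while 23.8% of all genes tested did not overlap.

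**Figure D1:**
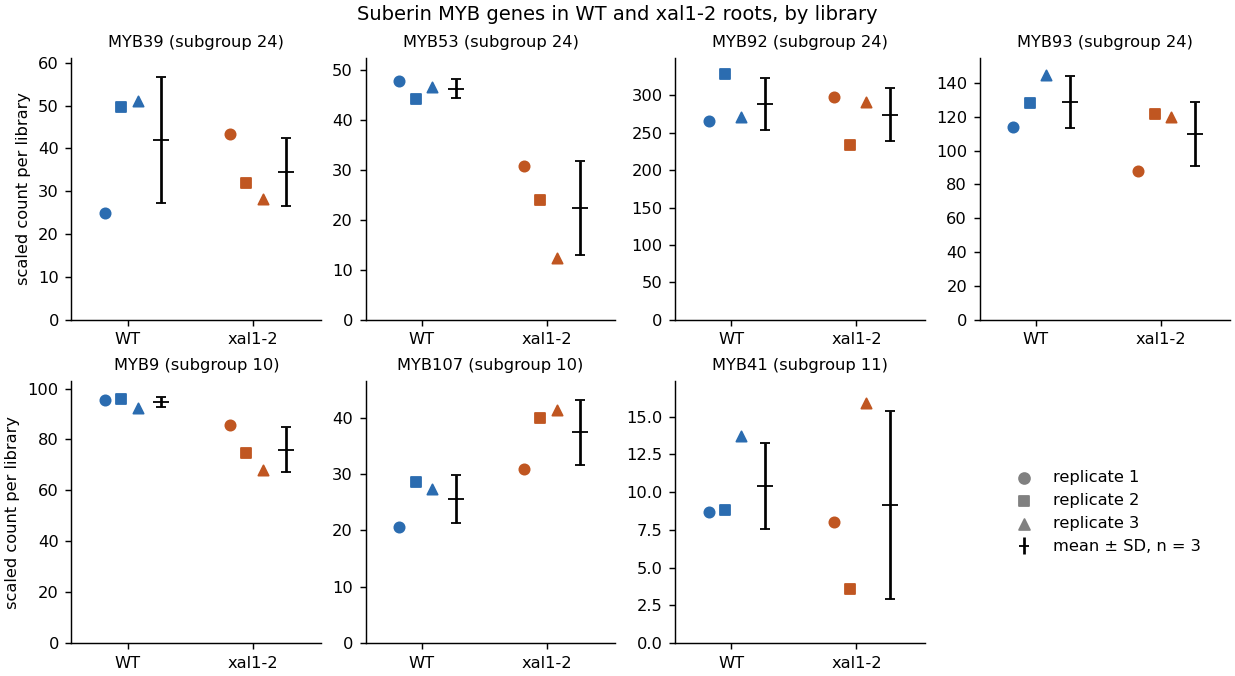
Scaled counts of the 7 MYB genes in each library (vertical axes, linear from 0), with WT in blue, xal1-2 in orange, a marker shape for each replicate and black marks for the mean ± SD of 3 libraries. MYB53 lies between 44.1 and 47.8 in WT and between 12.4 and 30.8 in xal1-2, and MYB107 is the only member with every xal1-2 library above every WT library.

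Among the subgroup 24 genes, MYB53 had the largest difference. MYB53 (AT5G65230; TAIR10.1 chromosome 5, 26068112 to 26069652, plus strand, 3 exons) acts with MYB41, MYB92 and MYB93 in endodermal suberization and activates genes of fatty acid synthesis. Its scaled counts were 47.8, 44.1 and 46.6 in WT, from 44, 40 and 51 reads, and 30.8, 23.96 and 12.4 in xal1-2, from 27, 27 and 14 reads. WT libraries were close together and the xal1-2 libraries spread more widely below them, replicate 3 lowest. The mean was 46.2 ± 1.89 (SD, n = 3) in WT and 22.4 ± 9.33 in xal1-2, which is -1.10 on the log2 scale (SE 0.31, 95% interval -1.79 to -0.41; limma adjusted p = 0.0769). The interval lay below 0, but the value missed the threshold once adjusted over all genes. An adjusted p under 0.1 would take MYB53 and no other member, and 7.79% of all genes tested. The other tools also stopped short of it, with adjusted p = 0.0588 in edgeR, 0.0643 in DESeq2 and 0.0516 in limma-voom, and the authors' deposited table gives a log2 fold change of -1.06 with adjusted p = 0.0656. Without xal1-2 replicate 3 the log2 fold change was -0.74. The first 57 bases of MYB53 overlap the end of AT5G65225 on the same strand, a gene with 0 to 2 reads in each library.

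MYB92 (AT5G10280; chromosome 5, 3232569 to 3234277, plus strand) is a close relative of MYB53 that also activates suberin and fatty acid synthesis genes. It had scaled counts of 266.0, 328.4 and 270.5 in WT and 297.9, 233.3 and 291.2 in xal1-2. The libraries of both groups were interleaved. The log2 fold change was -0.07 (SE 0.13; limma adjusted p = 0.782), and its 95% interval of -0.36 to 0.21 holds mutant levels of 0.778 to 1.16 of WT. Its sign changed without WT replicate 2 (0.023) or xal1-2 replicate 2 (0.038). AT5G10278, a non-coding RNA gene on the same strand that shares 155 bases of exon with MYB92, had 57.1 ± 9.1 scaled counts in WT and 58.4 ± 10.6 in xal1-2.

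MYB93 (AT1G34670; chromosome 1, 12709090 to 12710665, plus strand) is expressed in endodermal cells over lateral root primordia and restrains lateral root development, besides its part in suberization. Scaled counts were 114.0, 127.8 and 144.4 in WT and 87.9, 121.6 and 120.0 in xal1-2, so that xal1-2 replicate 1 was low and the other xal1-2 libraries fell within the WT range. The log2 fold change was -0.24 (SE 0.17, 95% interval -0.60 to 0.13; limma adjusted p = 0.479), and it was -0.085 without xal1-2 replicate 1. MYB39 (AT4G17785; chromosome 4, 9881599 to 9883432, minus strand) promotes suberin deposition in the endodermis. Its scaled counts were 25.0, 49.6 and 51.2 in WT and 43.4, 31.9 and 28.2 in xal1-2. WT replicate 1 was the lowest of the 6 libraries and the groups overlapped. The log2 fold change was -0.23 (SE 0.30, 95% interval -0.89 to 0.44; limma adjusted p = 0.724), and it was -0.56 without WT replicate 1 and -0.052 without WT replicate 3.

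The subgroup 10 genes lay on opposite sides of 0. Both are known for suberin of the seed coat, where MYB107 and MYB9 activate synthesis genes, and both are transcribed in roots. MYB9 (AT5G16770; chromosome 5, 5514717 to 5517153, plus strand) had scaled counts of 95.5, 95.9 and 92.3 in WT and 85.6, 74.5 and 67.9 in xal1-2, with every mutant library below every WT library. Its log2 fold change was -0.32 (SE 0.16, 95% interval -0.66 to 0.03; limma adjusted p = 0.301). MYB107 (AT3G02940; chromosome 3, 661849 to 664011, plus strand) had 20.6, 28.6 and 27.4 in WT and 30.8, 39.9 and 41.5 in xal1-2. Here every mutant library was above every WT library, by 0.53 on the log2 scale (SE 0.25, 95% interval -0.02 to 1.08; limma adjusted p = 0.269). For MYB9, 1207 of its 2036 exon bases are shared with exons of DOT2 on the opposite strand, which had 416 ± 16.97 scaled counts in WT and 407 ± 20.8 in xal1-2. How the authors' counting treated strand is not stated in the labels, which leaves the level of MYB9 uncertain.

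MYB41 (AT4G28110; chromosome 4, 13968029 to 13969525, minus strand) is induced by abscisic acid (ABA) and salt, and drives suberin-type deposits when overexpressed in leaves. It was the least abundant member, with 8, 8 and 15 reads in WT and 7, 4 and 18 reads in xal1-2, or scaled counts of 8.68, 8.82 and 13.7 against 7.99, 3.55 and 15.9. Within xal1-2 the lowest and the highest of all 6 libraries were found. The log2 fold change was -0.34 (SE 0.46; limma adjusted p = 0.724), and its sign changed without xal1-2 replicate 2 (0.14). The 95% interval, -1.35 to 0.67, holds mutant levels of 0.393 to 1.59 of WT, so these libraries do not exclude a change of moderate size in MYB41. Counting error and the spread between libraries both enter the interval and were not separated.

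Per length of annotated exon, the members formed a steep order. In WT, MYB92 stood at 188 ± 22.7 scaled counts per kb (SD, n = 3), followed by MYB93 at 93.4 ± 11.1, MYB9 at 46.5 ± 0.966, MYB53 at 34.1 ± 1.39, MYB39 at 27.96 ± 9.8, MYB107 at 17.6 ± 2.98 and MYB41 at 7.49 ± 2.06. Neighbours in this order did not overlap, except MYB53 with MYB39 and MYB39 with MYB107. The place of MYB9 is uncertain in both genotypes, since 1207 of its 2036 exon bases are shared with DOT2 and the strand treatment is not stated. The same limit holds for the sums over the 7 genes given next. MYB92 by itself made up 41.6% to 48.1% of the summed level per kb in the WT libraries and 44.0% to 51.3% in the xal1-2 libraries. In xal1-2 the first 3 places and the last were the same. MYB107, at 25.8 ± 3.97 per kb, came to the fourth place and MYB53, at 16.5 ± 6.89, to the sixth, with MYB39 at 23.0 ± 5.26 between them, and the ranges of MYB107 and MYB39, MYB39 and MYB53, and MYB53 and MYB41 overlapped. The summed scaled counts of the 7 genes were 577.5, 683.2 and 646.1 in WT and 584.4, 528.8 and 577.1 in xal1-2. No stretch of 50 bases in their exons occurs elsewhere in the TAIR10.1 genome, so reads of such length would not have been shared between members.

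**Figure D2:**
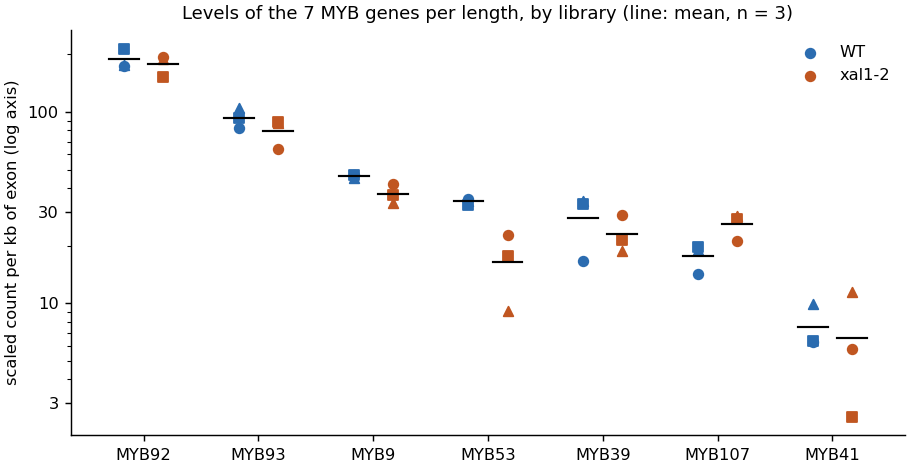
Scaled count per kb of annotated exon (vertical axis, logarithmic) for each library, with WT in blue, xal1-2 in orange, marker shapes for replicates 1 (circle), 2 (square) and 3 (triangle), and a line at the mean of 3. The genes run from MYB92, at 188 per kb in WT, down to MYB41, at 7.49, and MYB53 and MYB107 exchange places between the genotypes.

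Ratios of reads between members of a subgroup, taken within a library, do not depend on the scaling between libraries. Of the 7 pairs within subgroups 24 and 10, which share members, 3 had ratios that did not overlap between genotypes, 2 of them with MYB53. MYB53 relative to MYB92 was 0.18, 0.134 and 0.172 in WT and 0.103, 0.103 and 0.0424 in xal1-2, and 5.01% of all other genes tested were likewise lower against MYB92 without overlap. MYB107 relative to MYB9 was 0.216, 0.299 and 0.297 in WT and 0.36, 0.536 and 0.61 in xal1-2, but 34.8% of all other genes tested were also higher against MYB9 without overlap. MYB53 thus stood lower against MYB92 in each mutant library than in any WT library. MYB107 stood higher against MYB9, within the limit on MYB9 given above, but with that share of all genes this is no result about the members. MYB53 relative to MYB39 also did not overlap, at 1.91, 0.889 and 0.911 in WT and 0.711, 0.75 and 0.438 in xal1-2 (1.31% of all other genes tested were lower in this way against MYB39), while MYB93 relative to MYB92 was 0.45 ± 0.0747 in WT and 0.409 ± 0.113 in xal1-2 (SD, n = 3 each) and overlapped. MYB53 relative to MYB93 overlapped too, at 0.419, 0.345 and 0.323 in WT and 0.351, 0.197 and 0.103 in xal1-2. These ratios were set out after the members' values were known and are given as a description.

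**Figure D3:**
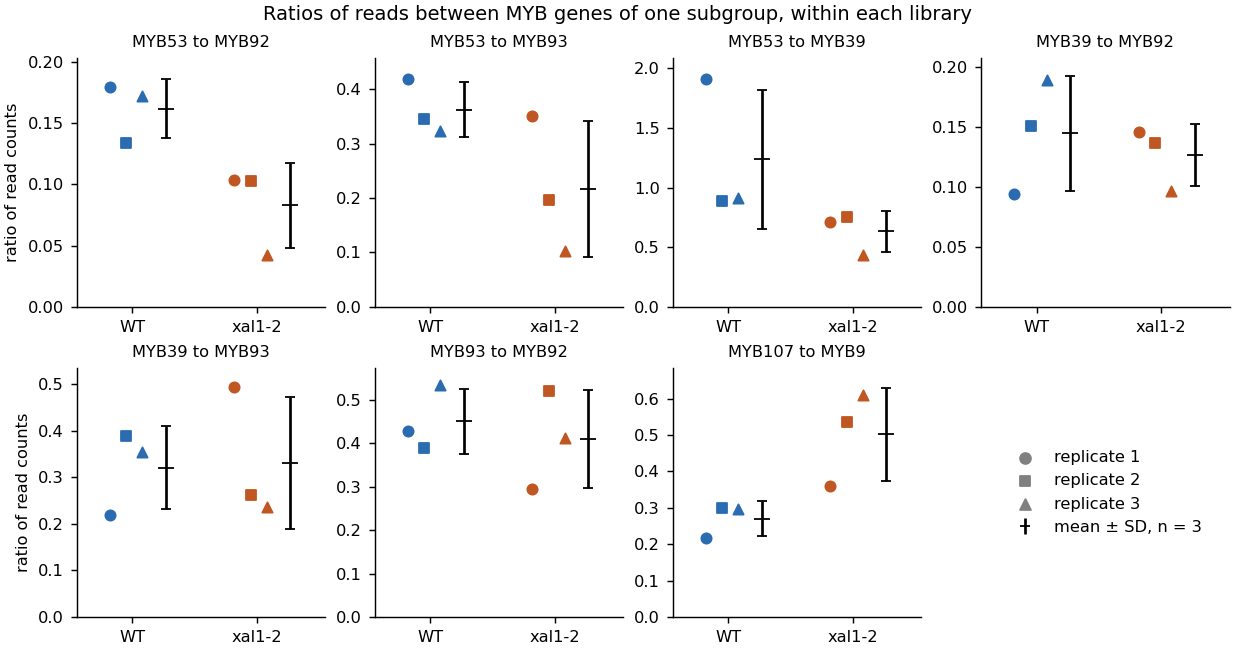
Ratio of read counts between genes of one MYB subgroup in each library (vertical axes, linear from 0), with WT in blue, xal1-2 in orange, marker shapes for replicates and black marks for the mean ± SD of 3. The genotypes do not overlap for MYB53 to MYB92, MYB53 to MYB39 and MYB107 to MYB9, and they overlap for the other pairs.

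Genes of the kind that these factors switch on fell in part. Of 18 genes of suberin monomer synthesis and export, 8 fell, none rose and 10 were not called, with a median log2 fold change of -0.57 beside -0.004 for all genes tested; of all genes tested, 2.27% fell and 1.66% rose. Scaled by library totals the balance over all genes turned, with 401 lower and 570 higher against 556 and 405 here, while 7 suberin genes fell and none rose. The transporter gene ABCG6, which exports suberin precursors, had scaled counts of 690.4, 847.4 and 837.1 in WT and 401.8, 422.3 and 373.3 in xal1-2 (log2 fold change -0.98, SE 0.11; limma adjusted p = 0.00103). LTPG15, a lipid-transfer protein gene of suberin, fell by 0.92 (SE 0.12; adjusted p = 0.00325) and GPAT5, the glycerol-3-phosphate acyltransferase of suberin, by 0.91 (SE 0.12; adjusted p = 0.00249). CYP86A1, the fatty acid omega-hydroxylase, fell by 0.88, ABCG20 by 0.77 and ABCG2 by 0.75 on the log2 scale. Their falls exceeded the differences of 6 of the 7 MYB genes in size, and MYB53 alone had a log2 fold change as far below 0. These suberin genes were picked as the largest called falls of the list, so the comparison in part reflects that choice. FAR1, a fatty acyl reductase that makes fatty alcohols, and FACT, a caffeoyl transferase that acts on them, were at -0.08 and -0.05 (adjusted p = 0.793 and 0.857). FAR4 and FAR5 of the same list were lower, at -0.33 and -0.54, but not called (adjusted p = 0.19 and 0.107). All 18 genes had log2 fold changes below 0, as did 50.5% of all genes tested. An unadjusted limma p under 0.05 was reached by 14 of the 18 and by 19.6% of all genes tested. GPAT5, CYP86A1 and ABCG6 were called whichever library was left out. The count of 8 went to 3 without xal1-2 replicate 1 and 5 without WT replicate 2.

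**Figure D4:**
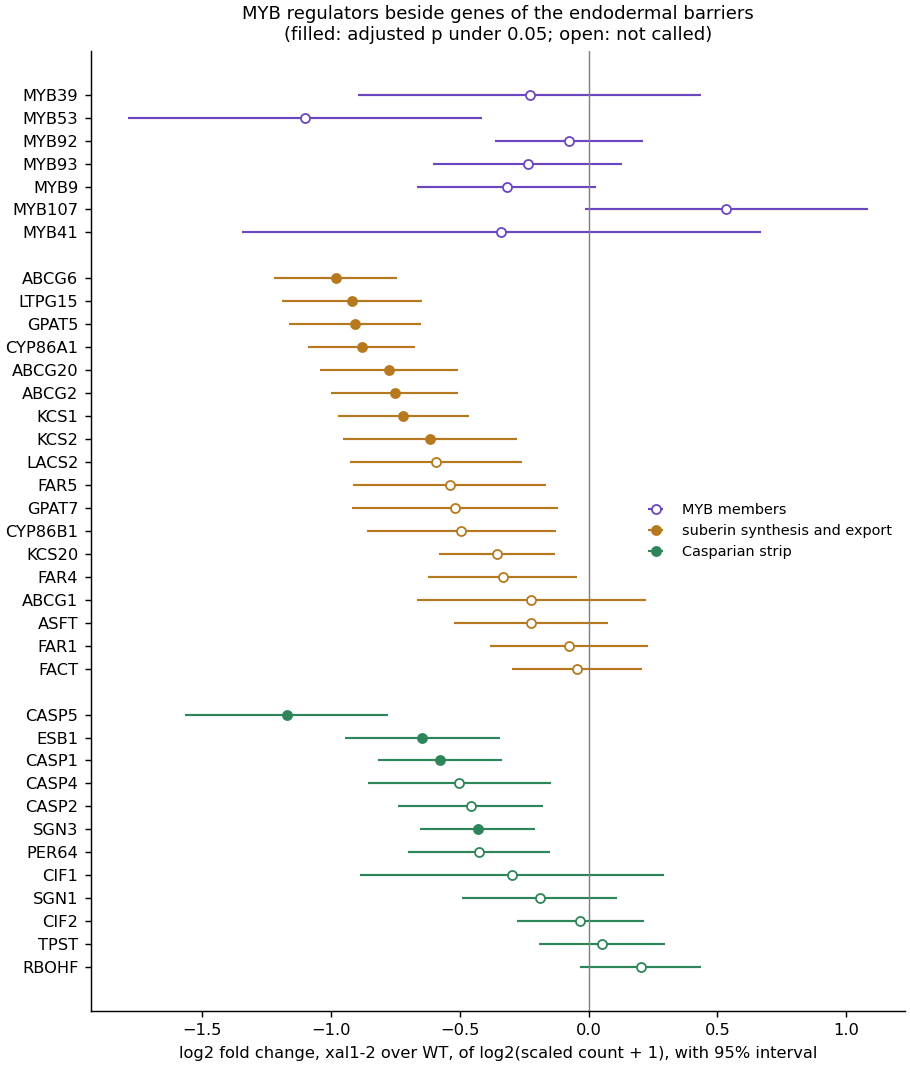
Log2 fold changes of xal1-2 over WT (horizontal axis, of log2(scaled count + 1)) with their 95% intervals for the 7 MYB genes in purple, 18 suberin synthesis and export genes in ochre and 12 of the 13 Casparian strip genes in green, where filled points passed an adjusted p under 0.05. All 7 MYB points are open, while 8 suberin and 4 Casparian strip points are filled, all below 0.

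Some Casparian strip genes, which mark an earlier step of endodermal differentiation, fell as well. Of 13, 5 fell, CASP5, ESB1 and SGN3 among them, none rose and 8 were not called, with a median log2 fold change of -0.43. CASP5, a scaffold protein gene of the strip, fell by 1.17 (SE 0.18; limma adjusted p = 0.00648; 0.0852 without xal1-2 replicate 1). The count of 5 went to 0 without xal1-2 replicate 1, to 1 without WT replicate 1, WT replicate 2 or xal1-2 replicate 3, to 2 without xal1-2 replicate 2 and to 8 without WT replicate 3. MYB36, a factor that activates some genes of the Casparian strip, was at 260 ± 4.44 scaled counts in WT and 237 ± 32.3 in xal1-2 (limma adjusted p = 0.566). All 7 endodermis markers had log2 fold changes below 0. All but MYB36 also stand in the Casparian strip list, so the markers are no separate measure beside it. In these bulk samples fewer endodermal cells and less RNA per cell cannot be told apart. The 3 root cap markers summed to 127.9 to 143.2 scaled counts in WT and to 145.6 to 181 in xal1-2. The sums were higher without overlap, though none of the 3 was called. Taken singly, BRN2 was higher without overlap (log2 fold change 0.74), as were 12.1% of all genes tested. SMB (0.22) and BRN1 (0.05) overlapped. The part of the endodermis or root cap marker differences in the falls of the suberin and Casparian strip genes was not tested. Per 1000 scaled counts of the 7 markers summed, MYB92 stood at 34.6, 44.8 and 46.4 in WT and at 66.1, 47.9 and 64.7 in xal1-2, and MYB107 at 2.69, 3.91 and 4.7 in WT and at 6.83, 8.2 and 9.22 in xal1-2. Relative to these markers, whose own sum was lower in every mutant library, MYB92 and MYB107 were higher in each mutant library than in any WT library, as were 52.3% of all genes tested, so this is no result about the members. The other 5 members overlapped, MYB53 among them with 6.74 ± 1.09 in WT and 4.83 ± 2.05 in xal1-2 (SD, n = 3 each). This ratio was chosen after the values were seen.

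Other regulators of these barriers gave no calls. Of 18 further genes with a known part in suberin, cuticle or endodermal regulation, 16 were tested and none was called by any of the 4 tools (limma-trend, edgeR, DESeq2, limma-voom), with 3 at an unadjusted limma p under 0.05. These 3 were MYB84 (log2 fold change -0.73, adjusted p = 0.125), MYB68 (-0.36, adjusted p = 0.163) and the ABA response factor ABI5 (1.02, adjusted p = 0.133), and the median was -0.02. SHR and SCR, which specify the endodermis, were at -0.002 and 0.08. The subgroup 11 relatives of MYB41 were not called either. MYB49 was at -0.03 (adjusted p = 0.933), MYB74 at -0.47 (0.299) and MYB102, with 0 to 4.41 scaled counts in a library, at 1.16 (0.226). Apart from the 7 members, the table holds 108 genes named as numbered MYB genes in the reference, 13 of which also stand in the lists above, and 87 had reads and none was called by any of the 4 tools. Of these, 12 had an unadjusted limma p under 0.05, and the median log2 fold change was -0.18.

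MYB53 and MYB92 activate genes of plastid fatty acid synthesis, which supplies the acyl chains of suberin. None of 14 such genes was called by any of the 4 tools, 1 had an unadjusted limma p under 0.05 (FATA, -0.33, adjusted p = 0.148), and the median log2 fold change was -0.03. BCCP2, a subunit of plastid acetyl-CoA carboxylase and a target of MYB92, was at 573 ± 34.7 scaled counts in WT and 559 ± 66.9 in xal1-2 (adjusted p = 0.866). For MYB93, 11 lateral root genes were looked at, of which 1 rose, none fell and 10 were not called, with 7 below 0 and a median log2 fold change of -0.10. LRP1, which marks early primordia, rose from 91.5 ± 3.06 to 153 ± 16.6 scaled counts (log2 fold change 0.73, SE 0.14; limma adjusted p = 0.0185). At an unadjusted limma p under 0.05, 3 others were lower, PUCHI at -0.93 (adjusted p = 0.121), GATA23 at -0.91 (0.158) and the auxin response factor ARF7 at -0.30 (0.0843). Without a filter on low values LRP1 missed the threshold (adjusted p = 0.0721) and ARF7 was called lower (0.035). The call of LRP1 was also lost when the second WT library, or either of the first 2 xal1-2 libraries, was left out (adjusted p up to 0.11).

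ABA promotes endodermal suberin and induces MYB41. Of 15 ABA response genes 2 fell, none rose and 13 were not called, with a median log2 fold change of -0.34. HAI1, a protein phosphatase gene induced by ABA, had 45.6, 45.2 and 66.7 scaled counts in WT and 26.3, 18.6 and 13.2 in xal1-2 (log2 fold change -1.42, SE 0.29; limma adjusted p = 0.0254). RD29B had 8, 4 and 3 reads in WT and 0, 0 and 1 in xal1-2 (-2.23, SE 0.47; adjusted p = 0.0274); edgeR, DESeq2 and limma-voom called 1 gene of this list each, against 2 here. NCED3, which encodes a rate-limiting enzyme of ABA synthesis, was at 25.4 ± 0.949 in WT and 12.9 ± 1.41 in xal1-2 (adjusted p = 0.0818). Of the 15, 12 were below 0 and 3 above, beside 50.5% below 0 of all genes tested. The 3 above were ABI1 at 0.04, ABI2 at 0.10 and ABF4 at 0.001, and RD29A was at -0.02. ABI5, counted above among the other regulators, was at 1.02 and not called. HAI1 missed the threshold whichever library was left out (adjusted p up to 0.082), and RD29B missed it with any library but replicate 3 of either genotype removed (up to 0.153). HAI1 and RD29B differ in depth, RD29B resting on 16 reads over all 6 libraries.

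Letters of the ABA response element were looked for in the 500 bases before each annotated gene start, since MYB41 is ABA-induced. Its core ACGTG, read on either strand, was found before 4 of the 7 members (MYB9, MYB41, MYB53 and MYB107) and before 35.5% of 27443 protein-coding genes. For MYB53 the core begins 5 and 6 bases before the gene start, on opposite strands, where an exon of AT5G65225 overlaps, and is not printed. MYB41 had it at 3 places, of which the first pair overlaps on opposite strands, and the contexts of MYB41, MYB107 and MYB9 are printed from the TAIR10.1 genome (RefSeq), 5′ to 3′ on the strand of the gene, with the core or its reverse complement in capitals.
MYB41, chr4:13969720-13969740, minus strand: atactatcACGTGgatcgttt
MYB41, chr4:13969628-13969648, minus strand: ttcaaaggACGTGgcatatta
MYB107, chr3:661511-661531, plus strand: aagctaatACGTGagttatat
MYB107, chr3:661753-661773, plus strand: caaatggaCACGTcagaagag
MYB9, chr5:5514367-5514387, plus strand: ttgtttacCACGTaaacactt
The CArG box, the site bound by MADS-box factors, searched as CC and GG around 6 bases of A or T, was found before none of the 7 and before 4.21% of protein-coding genes. The AC element of MYB factors, searched on either strand as ACCTACC (form I), ACCAACC (form II) and ACCTAAC (form III), was also found before none of the 7, and before 11.5% of genes. These are matches of letters only, in windows of 500 bases.

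The genes most like each member were taken as those with the highest Pearson r of log2(scaled count + 1) over the 6 libraries, among genes with a mean of at least 20 scaled counts, for the 6 members with a mean of at least 10. For MYB53 they were XBAT35 (r = 0.997), AT4G14160 (0.99) and AT1G06840 (0.99), for MYB9 MEE4, ABCB6 and SYN4 (0.99 each) and for MYB107 AT5G12220, AT3G43740 and AT5G44320 (0.99 each). For MYB93 they were LSH4, CB5-B and AT4G14370 (0.99 each), for MYB39 AT5G06970 (0.99), MPK18 and TSB2 (0.98 each), and for MYB92 AT1G36990 and AT5G07790 (0.96 each) and AT5G25770 (0.95). None of these 18 genes is a member or in a list above, and 4 to 91 of about 17609 genes compared reached r of 0.95 with a given member. The 6 points share 2 genotypes, and the lists are a description only.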

How the data were processed

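Libraries were TruSeq Stranded mRNA for paired-end sequencing, per the labels' protocols. The submitters' processing notes name Trimmomatic 0.39, FastQC 0.11.9, Subread 2.0.1 and DESeq2, with TAIR10 as the build, and no settings. The authors deposited a signal per gene and library, read counts divided by a size factor. Within 0.001 of a read, 100% of values above 0 came out as whole reads. The authors' deposited log2 fold changes, their test statistic (a score) and p-values were used only where named.

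The main test was limma 3.58.1 (R 4.3.3) with an intensity trend on log2(signal + 1), genotype as the only term, 6 libraries, on the 24441 genes with a value above 0 in any library, with Benjamini-Hochberg adjustment over all of them. This replaced the test planned for raw counts. edgeR 4.0.16 (quasi-likelihood), DESeq2 1.42.0 and limma-voom on recovered reads were alternatives. The tests were checked on simulated counts. Recovered totals ran from 6978879 to 9247089 reads, and counting error limits the members with few reads. Intervals are limma's. Replicates are biological per the labels, and no pair agreed within sampling noise (chi-square per degree of freedom of 3.94 to 9.7).

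Members and gene lists were chosen with earlier results of these data known. The text names the members, XAL1, the relatives of MYB41 and the 3 genes most like each member. It also names the called genes of each list (at most 6, by size of change). Other genes were added after their values were seen. They are FACT, FAR1, FAR4, FAR5, MYB36, MYB68, MYB84, ABI5, SHR, SCR, FATA, PUCHI, GATA23, ARF7, BCCP2, NCED3, ABI1, ABI2, ABF4, RD29A, CRU3, SMB, BRN1 and BRN2. All lists were fixed by identifier, and no set test was run. Positions and exon lengths are those of TAIR10.1, whose identifiers matched 32548 of 32833 genes. A member of the Casparian strip list enters the counts and sums but is not reported by itself here.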

Additional observations from a re-analysis of the deposited data

How the results depend on the processing

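Of the values of the 7 members under alternatives, 119 kept their direction and their side of the threshold, 3 changed sign and 1 passed a looser threshold. The other thresholds, the filters and the replicate block leave a fold change as it is, so they could not change a sign. Adding a fold threshold could not add a call either, so part of the 119 was fixed in advance. The sign changes were those of MYB41 (0.14 without xal1-2 replicate 2) and MYB92 (0.023 without WT replicate 2 and 0.038 without xal1-2 replicate 2). At an adjusted p under 0.1, MYB53 (-1.10) was the 1 member called. Leaving out each library gave ranges of -0.81 to 0.14 for MYB41, -0.14 to 0.038 for MYB92, -0.32 to -0.085 for MYB93 and -1.37 to -0.74 for MYB53 (adjusted p 0.129 to 0.198). Genes called over the whole table numbered 81 to 871 with a library left out, 154 with no filter and 1904 at an adjusted p under 0.1. Without a filter the suberin list had 2 calls, the Casparian strip and ABA lists 0 each, and the lateral root list 1 lower (ARF7) in place of 1 higher (LRP1); a fold change above 1.5 left 2 Casparian strip calls. ABA calls numbered 1 with edgeR, DESeq2, limma-voom, a pseudocount of 0.1 or the filter on scaled counts of at least 10, and 5 at an adjusted p under 0.1. Lateral root calls numbered 2 at an adjusted p under 0.1. The numbered MYB genes had 1 call under library totals, under a pseudocount of 5 and under the replicate block, and 3 at an adjusted p under 0.1. With a library left out, calls ran from 3 to 9 for suberin, 0 to 8 for the Casparian strip, 0 to 2 for ABA, 0 to 1 for lateral root, other regulators and the numbered MYB genes. Each fit with a library left out also rests on fewer libraries. The cause of these differences was not tested.

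With the replicate number as a block 839 genes were called, none of the members among them, and MYB53 had adjusted p = 0.0714. Deviations of same-numbered libraries correlated at 0.0186, 0.321 and -0.0125, so the numbers were not taken to pair the libraries. Low depth and the spread between libraries both limit MYB41, which had 4 to 18 reads in a library.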
